A study of Mus musculus with 574 samples.

Results

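The genes described here are 39 genes of chromosomal DNA replication, taken by symbol from a fixed list, out of 46078 gene rows in single granulocyte-macrophage progenitors of mouse bone marrow. All 39 were found in the count tables, and all 39 passed the filter on low counts in the comparisons of days. The mice were C57Bl/6, of 6 to 12 weeks, and the protocol describes 1 dose of 150 mg/kg 5-fluorouracil (5-FU) or a PBS control, with marrow taken on days 0, 8, 10, 12 and 14. The day 0 cells carry the treatment label 5-FU, and the labels do not say whether their mice received the control injection. The sort kept cells without lineage markers or Sca-1 that carried c-Kit, CD34 and Fc gamma receptor, and placed 1 cell in each well. The labels do not say whether the cells of a set came from 1 mouse or several, or which sets came from crushed and which from flushed bones. There were 6 sets of cells: 1 for each of days 0, 10, 12 and 14 and a pair, replicates 1 and 2, for day 8.

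5-FU is a pyrimidine analogue that blocks thymidylate synthesis, and it kills cycling marrow cells, after which surviving progenitors divide to rebuild the blood. Replication begins in G1 phase, when the origin recognition complex, Cdc6 and Cdt1 load the ring of 6 MCM subunits onto origins. At the entry into S phase, Cdc45 and the GINS complex join the ring to form the active helicase, and polymerases, primase, the sliding clamp and its loader follow the fork. Many of these genes are targets of E2F factors, which cyclin E with Cdk2 helps to release from RB proteins.

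Of 574 labelled cells, 573 had a column of counts, and 500 of these were kept, with 50000 or more reads assigned to genes and 1000 or more genes detected. That left 92 day 0 cells, 90 and 93 in the day 8 pair, 93 from day 10, 85 from day 12 and only 47 of 96 from day 14. Reads in genes summed to between 4849678 (day 14) and 30691997 (day 8 replicate 1) per set. The day 14 set stood apart in other ways as well. Its cells had a median of 4714 genes with a read after every cell was thinned to 50000 reads, against 5123 to 5867 in the other sets. A median of 31.2% of its reads fell on Slc34a2, against 9.68% to 18.03% elsewhere. Levels are given in CPM, counts scaled to a library of 1e6 reads, with library sizes adjusted by TMM factors within each fit. CPM from separate fits are therefore not on the same scale, and in thinned cells they are plain counts per 1e6 reads. Xist, which is transcribed from the inactive X chromosome of female cells, had 179.9 and 156.1 CPM on days 0 and 12. In the other sets Xist had 1.66 CPM or fewer. Ddx3y, on the Y chromosome, had 17.4 and 5.42 CPM on those days and 37 to 88.3 CPM in the others. In comparisons of days 8, 10 and 14 with day 0, and of day 12 with day 8, the day and the sex of the mice therefore cannot be told apart, and since only day 8 had more than 1 set, neither can day and set on the other days. Kit and Cd34, genes of the sort, were detected in every set (52.04 to 102 and 353 to 583 CPM). Fcgr3, an Fc gamma receptor gene, had 295.6 CPM on day 0 but 105.7 and 117 CPM in the day 8 pair, and 276 to 363 CPM on the later days. Ly6a, which encodes Sca-1, lay between 3.84 and 12.98 CPM. Elane and Mpo, granule protein genes of the granulocyte lineage, were lower in the day 8 sets (Elane 2594 and 2894, Mpo 22882 and 14518 CPM) than on day 0 (17289 and 50756 CPM). Of the 9 genes on the granulocyte list 5 fell on day 8, of the 10 on the monocyte list 8 fell, and of the 9 on the stem and progenitor list 4 rose. Over all genes tested, edgeR called 3.02% lower and 2.61% higher on day 8 against day 0 (adjusted p below 0.05). Of other lineages, the 8 erythroid genes summed to 85.9 CPM on day 0 and to 224 and 246 CPM on day 8, where 4 of the 5 tested rose, with Hba-a1 at 0 reads in all 6 sets. The 7 mast cell and basophil genes summed to 232 CPM on day 0 and 419.5 and 291 CPM on day 8 (3 of 5 tested rose), and the 9 lymphoid genes to 986 CPM and then 675 and 783 CPM (1 of 4 tested fell). Malat1 and Neat1, nuclear RNAs taken as signs of RNA quality, fell on day 8 by 1.06 ± 0.27 (adjusted p = 0.00894 in edgeR) and by 1.29 ± 0.26 (adjusted p = 0.000983 in edgeR). The part of these genes in the results below was not tested.

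Per kilobase of exon the 39 genes spanned 49.4-fold in mean level. The highest were Mcm6 (131.5 CPM per kb), Mcm5 (99.8) and Mcm3 (89.1), all subunits of the MCM ring, and Gmnn (85.9), which encodes the Cdt1 inhibitor geminin. The lowest were Orc1 (2.66 CPM per kb), the largest subunit of the origin recognition complex, Pole (3.48), the catalytic subunit of the leading-strand polymerase, and Chaf1a (5.21), a subunit of chromatin assembly factor 1. After thinning, 7 of the 39 genes had a read in over 90% of cells, with Mcm6 at 97.2% and Rfc2 at 96.4%. At the other end, 5 genes had one in fewer than 50% of cells: Orc1 in 21%, Gins3 in 36.2%, Ccne1 in 39.6%, and Ccne2 and Pole in 45% each. The day 8 replicate 1 set held the highest level of 18 of the 39 genes and the day 14 set the lowest of 21.

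**Figure D1:**
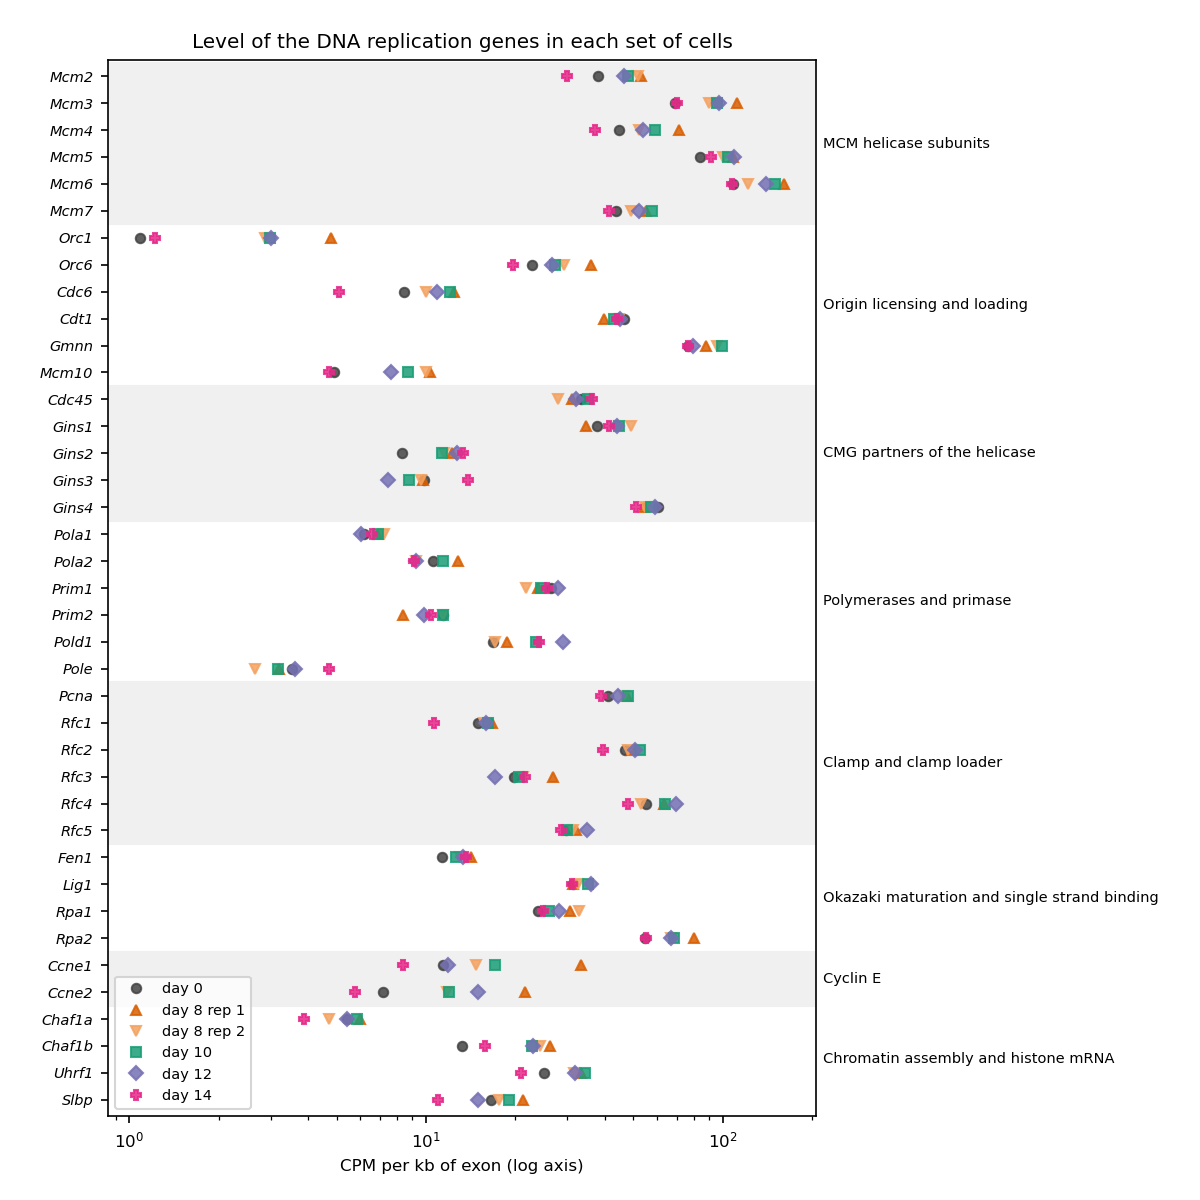
Level of each of the 39 genes (rows, grouped by role) in the 6 sets of cells, as CPM per kb of exon on a log axis; each point is 1 set. Mcm6 is highest and Orc1 lowest, and the day 14 points lie at the low end for 21 genes.

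Promoters are shown for 3 members. Mcm10 and Orc1 rose on day 8. Pola1, the catalytic subunit of polymerase alpha, was called in no comparison, and its printed stretch holds a match to an E2F site. It lay among the 5 lowest in the comparison of cells high in S-phase genes with low cells. Ccne1, Mcm2 and Slbp, also at the ends of that comparison and called between days, had no such match and are not shown. RefSeq's table for GRCm38.p6 matched 30 of the 39 genes, with 35 promoters. The 250 bases before each start site were searched on both strands for 4 forms of the E2F site (TTTCGCGC, TTTGGCGC, TTTCCCGC and TTTGCCGC) and for CCAAT, the box bound by NF-Y, which reads ATTGG on the other strand. Only bases before every annotated start of the gene are printed, 5′ to 3′ on the strand of the gene, with matches in capitals. Mcm10 spans chr2:5012792-5013041 (minus strand), Orc1 chr4:108579204-108579422 (plus strand) and Pola1 chrX:93632156-93632405 (minus strand).
Mcm10: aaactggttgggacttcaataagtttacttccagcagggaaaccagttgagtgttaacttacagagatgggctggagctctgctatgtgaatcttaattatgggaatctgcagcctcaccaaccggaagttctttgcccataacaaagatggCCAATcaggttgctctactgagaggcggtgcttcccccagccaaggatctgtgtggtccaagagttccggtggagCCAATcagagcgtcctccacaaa
Orc1: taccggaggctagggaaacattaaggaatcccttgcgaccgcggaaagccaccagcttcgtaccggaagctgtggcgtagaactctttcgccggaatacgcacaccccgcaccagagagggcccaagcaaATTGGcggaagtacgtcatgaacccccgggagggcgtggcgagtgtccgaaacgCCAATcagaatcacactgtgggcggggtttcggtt
Pola1: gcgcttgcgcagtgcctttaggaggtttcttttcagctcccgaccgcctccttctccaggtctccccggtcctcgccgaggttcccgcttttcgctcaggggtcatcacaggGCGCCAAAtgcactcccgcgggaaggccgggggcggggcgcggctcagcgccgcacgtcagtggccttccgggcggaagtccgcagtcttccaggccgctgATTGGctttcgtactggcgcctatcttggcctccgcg

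The E2F forms were found in 9 of the 35 member promoters (25.7%), against 1.86% of all 32851 promoters in the table. CCAAT was found in 22 (62.9%), against 33.8% of all. Member promoters had a median G and C content of 61.2%, against 52.4% over all, and the part of base content in these shares was not tested. Mcm10 had no E2F form and CCAAT at 98 and 23 bases before the start. Pola1 had an E2F form at 138 bases and a CCAAT match at 37 bases before it. In Orc1 both CCAAT matches are in the printed stretch, and an E2F form begins 27 bases before the RefSeq start, past the printed end. Ccne1 had neither motif in its window. A match of letters does not show that a site is bound, and a window without one does not show that the gene is no target.

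Of the 39 genes, 5 rose on day 8 against day 0 and none fell (edgeR quasi-likelihood test on counts summed per set, Benjamini-Hochberg adjusted p below 0.05). Over all 15145 genes tested, 2.61% were called higher. The 5 were the pair of cyclin E genes, Orc1 and Mcm10 from origin licensing and loading, and Chaf1b from chromatin assembly. The median change over the 39 genes was 0.25 on the log2 scale, against 0.01 over all genes, and 31 lay above 0 and 8 below. At an unadjusted p below 0.05 the same 5 genes passed. Here and below, counts at an unadjusted p stand without the share of all genes at that cut, so no excess can be read from them. The shares of all genes called refer to the adjusted p. In counts summed over cells, more cells with the RNA and more RNA per cell cannot be told apart. Set against the spike-in RNA in place of all gene reads, the 39 genes had 184.8 reads per 1000 spike-in reads on day 0 and 491 and 402 on day 8. Reads of all genes together also rose, from 40.8 per spike-in read on day 0 to 79.6 and 72.5 on day 8. The summed scaled level of the 39 genes was 4483 CPM on day 0 and 5785 and 5132 CPM on day 8.

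Orc1 had 3.79 CPM on day 0 against 16.7 and 10.0 CPM in the day 8 pair. It had the largest rise of the 39, by 1.82 ± 0.56 (SE) on the log2 scale (adjusted p = 0.0387 in edgeR). Its reads were few, with 63 reads in 19 cells on day 0 against 547 reads in 42 cells and 277 reads in 40 cells on day 8. Both day 8 sets lay above day 0, as did day 10 (10.4 CPM) and day 12 (10.4 CPM), and day 14 returned to 4.24 CPM. Mcm10, which binds the MCM ring and polymerase alpha at the start of synthesis, had 37.8 CPM on day 0 against 79.3 and 76.8 CPM in the day 8 pair. Its rise was 1.05 ± 0.28 (SE; adjusted p = 0.0173 in edgeR), and the day 8 pair differed little.

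For Ccne2 the day 0 level was 25 CPM and the day 8 levels 75.4 and 41.1 CPM, a rise of 1.22 ± 0.33 (SE; adjusted p = 0.0152 in edgeR). For Ccne1 the day 0 level was 30.5 CPM and the day 8 levels 88.4 and 39.3 CPM, a rise of 1.07 ± 0.34 (SE; adjusted p = 0.0455 in edgeR). For both cyclins replicate 1 lay far above replicate 2. With replicate 1 alone the differences from day 0 were 1.59 for Ccne2 and 1.53 for Ccne1, and with replicate 2 alone they were 0.73 and 0.38, with no test since no day then has a pair of sets. Chaf1b, the middle subunit of chromatin assembly factor 1, which places histones on new DNA, had 62.1 CPM on day 0 against 123 and 113 CPM in the day 8 pair. It rose by 0.93 ± 0.28 (SE; adjusted p = 0.0332 in edgeR).

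The remaining 34 genes did not pass the test. All 6 MCM ring subunits lay above 0, with a median of 0.42 and a range from 0.25 (Mcm7) to 0.54 (Mcm3, from 260 CPM to 420 and 337 CPM). The 5 partners of the ring (Cdc45 and GINS) had a median of -0.02, the 6 polymerase and primase genes -0.07, and the 6 clamp and clamp loader genes 0.10. The lowest values were those of Pole at -0.27 ± 0.29, Prim1 at -0.22 ± 0.26 and Prim2 at -0.20 ± 0.27 (SE). Pole went from 39.5 CPM to 35.8 and 29.7 CPM. Prim1 and Prim2 are the subunits of primase, which lays down the RNA primers. These standard errors are about as large as the estimates, so that no direction is shown for them.

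The number of genes called on day 8 depended on the test and on whether cells were thinned. DESeq2 called only Mcm10 (2.38% of all genes called) and limma voom called only Mcm10 (4.42%). Every cell was then thinned to 50000 reads, so that deep cells no longer weighed more. On these cells edgeR called none of the 39 and 0.00% of all genes, and DESeq2 none of the 39 and 0.394%. Thinning also discards reads. The prior degrees of freedom, which weigh the spread shared across genes, were 4.396 in the thinned edgeR fit against 51.49 in the main fit. That thinned fit called no gene in any comparison of days, so its lack of calls shows nothing about the members. On thinned cells the estimates were 1.61 for Orc1, 0.88 for Chaf1b, 0.74 for Ccne2, 0.68 for Ccne1 and 0.64 for Mcm10, all still above 0, and the median over the 39 genes was 0.13.

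**Figure D2:**
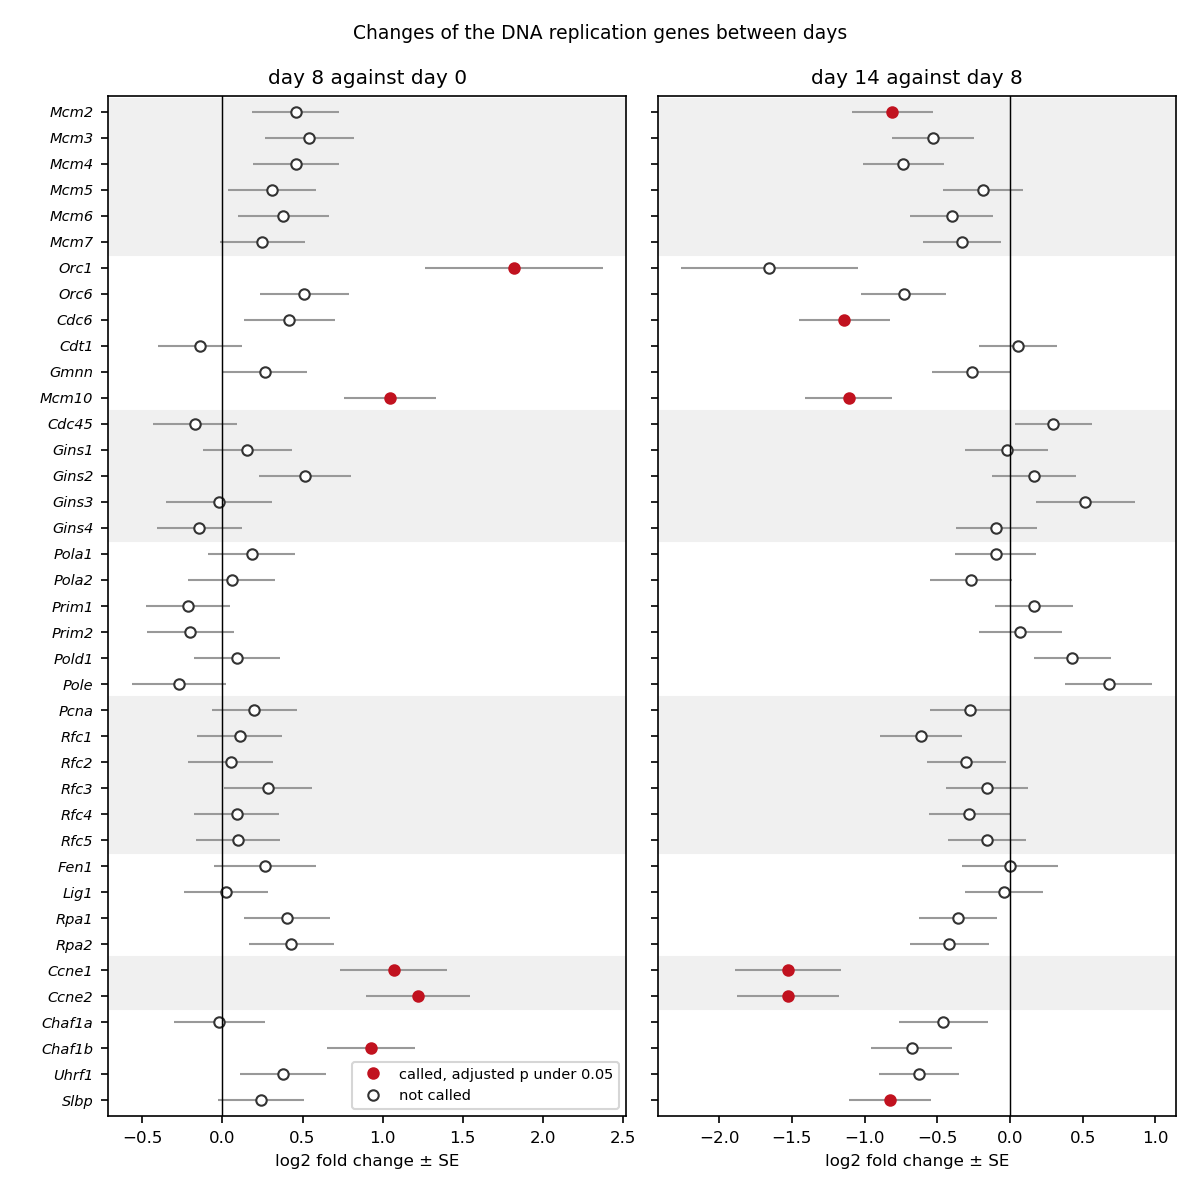
Log2 fold change (points) with its standard error (bars) of each of the 39 genes on day 8 against day 0 (left) and day 14 against day 8 (right); filled points passed an adjusted p of 0.05 in edgeR. The 5 filled points for day 8 lie to the right of 0 and the 6 for day 14 to the left, where Pole, Pold1 and Gins3, all open, lie furthest right.

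On the later days no member was called against day 0. On day 10 the median was 0.23 with 4 of 39 at an unadjusted p below 0.05, and 1.45% of all genes were called. Orc1 (1.46 ± 0.60) and Mcm10 (0.82 ± 0.32, at 66.95 CPM) had the highest estimates, and Gins3 (-0.17) and Pole (-0.16) the lowest. On day 12 the median was again 0.23, with 5 at an unadjusted p below 0.05 and 0.172% of all genes called. Orc1 (1.46 ± 0.60) and Ccne2 (1.06 ± 0.36, at 52.2 CPM) were highest and Gins3 (-0.40 ± 0.39) lowest. On day 14 the median was -0.06, with 2 at an unadjusted p below 0.05 and 1.58% of all genes called. Gins2 (0.68 ± 0.34), a GINS subunit, was highest there, and Cdc6 (-0.72 ± 0.34) and Slbp (-0.59 ± 0.32), the histone stem-loop binding protein, were lowest. DESeq2 called 0 of the 39 on each of these 3 days, where it called 0.343%, 0.0264% and 0.442% of all genes.

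Between the later days and day 8, no member was called on day 10 (0.792% of all genes) or on day 12 (2.50%). At an unadjusted p below 0.05 the counts were 0 and 2 of 39. DESeq2 and limma voom also called 0 on both days. Of all genes they called 0.297% and 0.938% on day 10, and 1.13% and 2.22% on day 12. On day 10 the lowest estimates were those of Ccne1 (-0.49) and Ccne2 (-0.48), and the highest was that of Pold1 (0.39), the catalytic subunit of the lagging-strand polymerase. On day 12 Ccne1 was lowest (-1.01 ± 0.33, adjusted p = 0.103 in edgeR) and Pold1 highest (0.69 ± 0.26, adjusted p = 0.18 in edgeR). From day 0 to day 14 the levels of Pold1 were 81.8, 90.9, 83.3, 114.4, 140.4 and 117 CPM, with day 12 highest.

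On day 14 against day 8, 6 of the 39 genes fell and none rose, where 6.58% of all genes were called lower. The median was -0.28, against -0.05 over all genes, with 30 genes below 0 and 13 of 39 at an unadjusted p below 0.05. Ccne2 fell by 1.53 ± 0.35 (SE) to 20.2 CPM (adjusted p = 0.002 in edgeR), and Ccne1 fell by 1.52 ± 0.37 to 22.2 CPM (adjusted p = 0.00292 in edgeR). Day 14 lay below day 0 for both, yet few cells carried these reads: 62.96% of the 81 Ccne2 reads and 50.6% of the 89 Ccne1 reads of day 14 came from 1 cell each. Cdc6, the loader that joins the origin recognition complex, had 65.2 and 52.3 CPM in the day 8 pair against 26.7 CPM on day 14, a fall by 1.14 ± 0.31 (adjusted p = 0.00947 in edgeR). Mcm10 fell by 1.11 ± 0.30 to 36.2 CPM (adjusted p = 0.00816 in edgeR). Slbp fell by 0.82 ± 0.28 from 129 and 107 CPM to 66.9 CPM (adjusted p = 0.0422 in edgeR). Mcm2 fell by 0.81 ± 0.28 from 368 and 360 CPM to 208 CPM (adjusted p = 0.0424 in edgeR).

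By role, with no test between roles and most members not called, origin licensing and loading genes had a median of -0.92, chromatin assembly and histone genes -0.65 and MCM ring subunits -0.46. The partners of the ring (0.17) and the polymerases and primase (0.12) had medians above 0. Pole (0.68 ± 0.30, from 35.8 and 29.7 CPM to 52.4 CPM) and Gins3 (0.52 ± 0.34, from 26.4 and 26.1 CPM to 37.7 CPM) had the highest estimates and did not pass. Cdt1, which loads the ring with Cdc6, lay at 0.06 ± 0.27. Orc1 had the lowest estimate, -1.65 ± 0.61, at an adjusted p of 0.057 in edgeR, with 17 reads in 5 cells on day 14.

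These calls too depended on the test. DESeq2 called 4 lower (Mcm2, Cdc6, Mcm10 and Ccne2, with 7.14% of all genes called), and limma voom called none (5.78%). On thinned cells edgeR called none (0.00% of all genes), which again shows nothing about the members, and DESeq2 none (1.69%). The thinned estimates for the 6 genes ran from -1.94 (Ccne2) to -0.51 (Slbp).

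Other genes of replication, on a list of 35 that includes further origin, polymerase and histone chaperone subunits, were tested in the same fit. On day 8, 2 of the 35 rose (2.61% of all genes were called higher) and none fell: Orc2 by 0.92 ± 0.28 (adjusted p = 0.0409 in edgeR) and Chtf8, part of an alternative clamp loader, by 0.88 ± 0.28 (adjusted p = 0.0492 in edgeR). The median of the 35 was 0.11. On day 14 against day 8, 2 rose (Orc4 by 0.83 and Pold4 by 1.06) and 2 fell (Pole3 by 1.08 and Asf1a by 0.94), where 14.2% of all genes were called. Among 15 genes of the E2F and RB system, Mybl2, a B-Myb gene that acts with the MuvB complex, rose on day 8 by 1.60 ± 0.32 (adjusted p = 0.000669 in edgeR), from 18.2 CPM to 63.5 and 46.7 CPM, and on day 10 by 1.46 ± 0.35 (adjusted p = 0.0133 in edgeR). E2f1 was not called on day 8 (-0.32) and neither was any other E2F gene. On day 14 against day 8, E2f4 fell by 1.05 and Tfdp2, a dimer partner of E2F factors, rose by 1.15. Lin9, a MuvB subunit, fell on day 8 by 1.24 and rose on day 14 against day 8 by 2.25. Its levels (156, 53.1, 79.4, 74.97, 85.8 and 315 CPM from day 0 to day 14) were highest in the set with the highest Slc34a2 share and lowest in the set with the lowest, and the part of that share was not tested.

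The share of cells in S phase was estimated from 25 S-phase genes that are not among the 39, such as Rrm2 and Tyms. A cell was called S-list-high where at least 15 of the 25 had a read after thinning, a threshold set by Otsu's method over all 500 cells. By this measure 377 of 500 cells (75.4%) were S-list-high, and 60 cells (12%) lay within 1 gene of the threshold. The share was 69.6% on day 0 (64 of 92 cells, exact 95% interval 59.1% to 78.7%). Day 8 followed with 91.1% (83.2% to 96.1%) and 84.95% (76.03% to 91.5%), and then came 81.7% (72.4% to 88.98%) on day 10 and 68.2% (57.2% to 77.9%) on day 12. Day 14 was lowest, with 38.3% (18 of 47 cells, 24.5% to 53.6%). The intervals cover counting error only, and cells of a set are not replicates of a day, so no test was made.

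The count of S genes detected is not specific to S phase. Of the 377 S-list-high cells, 253 were also high in a list of 54 G2 and M phase genes (at least 32 with a read). Cells high in the S list alone made up 33.7% on day 0 but 14.4% and 17.2% on day 8, while cells high in both lists went from 35.9% to 76.7% and 67.7%. A phase call was also made, which sets each list against control genes of like level. It put 55.4% of day 0 cells and 67.8% and 59.1% of day 8 cells in S. On day 10 the share was 66.7%, on day 12 64.7% and on day 14 48.9%. By this call days 10 and 12 lay above day 8 replicate 2, and day 12 lay above day 0. Genes detected at equal depth were most numerous in the day 8 sets (medians of 5852 and 5867) and fewest in the day 14 set (4714), the sets with the highest and the lowest S-list-high shares. Day 10 had a median of 5502 genes, day 12 of 5169 and day 0 of 5123, and the part of this in the shares was not tested.

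**Figure D3:**
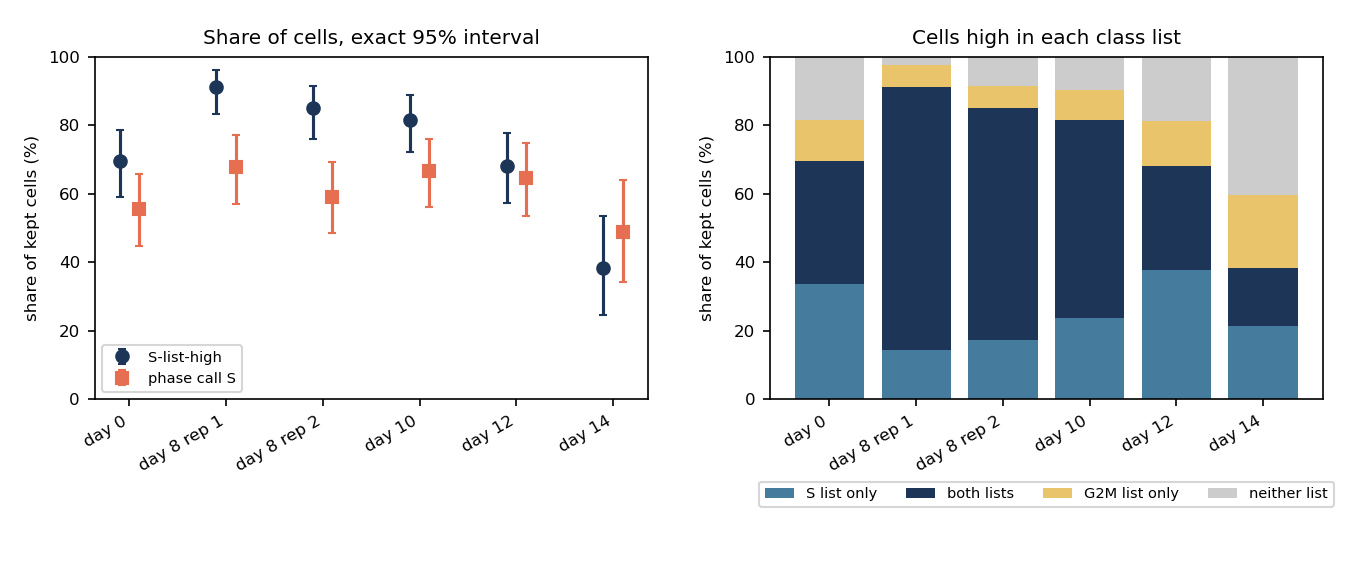
Left, share of kept cells per set that were S-list-high (circles) or called S by phase score (squares), with exact 95% binomial intervals; right, the share of cells high in the S list only, in both lists, in the G2M list only or in neither. The circles are highest on day 8 and lowest on day 14, and the gain on day 8 lies in cells high in both lists.

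In single cells more of the 39 genes were detected in S-list-high cells than in others. A thinned S-list-high cell had reads in a median of 32 of the 39 genes, with a lowest of 20 and a highest of 39, and any other cell in a median of 22. The summed level of the 39 genes had a median between 4420 CPM (day 14) and 6370 CPM (day 8 replicate 1) in S-list-high cells. In other cells the medians lay between 1720 CPM (day 14) and 3120 CPM (day 10). The ranges of single cells overlapped in every set.

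**Figure D4:**
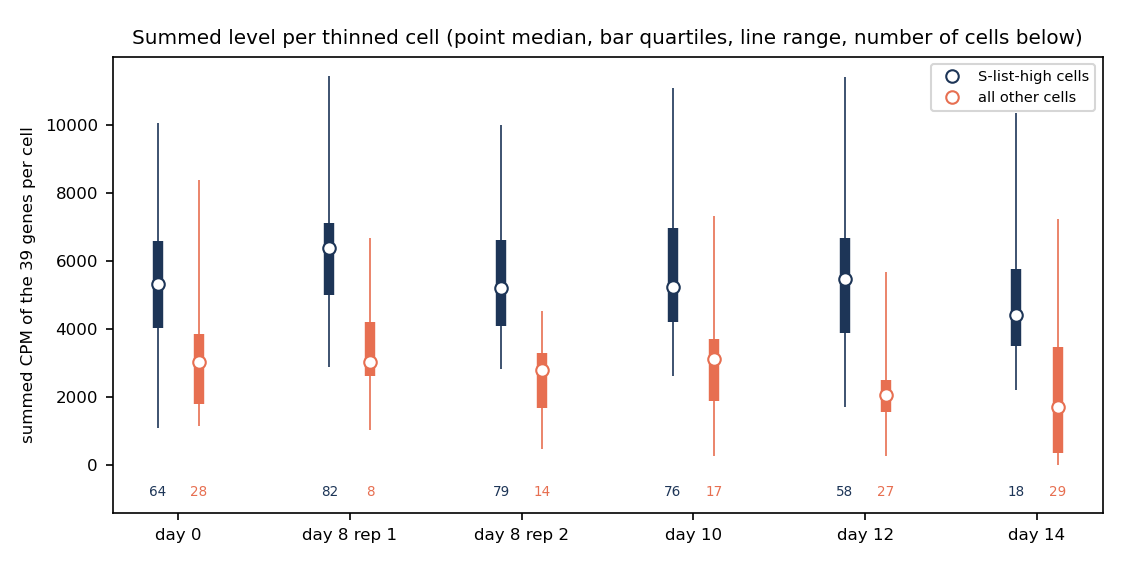
Summed level of the 39 genes per cell thinned to 50000 reads, in CPM, for S-list-high cells and all other cells of each set; points are medians, thick bars quartiles, thin lines the full range, and the numbers of cells stand below. Medians of S-list-high cells lie between 4420 and 6370 CPM and those of other cells between 1720 and 3120 CPM.

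Within S-list-high cells alone, no member was called against day 0 on day 8 (5.03% of all genes called), day 10 (1.32%), day 12 (0.167%) or day 14 (2.91%). At an unadjusted p below 0.05 the counts were 5, 3, 5 and 6 of 39 in edgeR. DESeq2 called none of the 39 on days 8, 10, 12 or 14, where it called 2.39%, 0.45%, 0.0257% and 0.726% of all genes. The day 8 median was 0.12, with 24 genes above 0 and 15 below. The 5 genes that had risen over all cells kept estimates above 0: Orc1 1.60, Ccne2 1.003, Mcm10 0.84, Chaf1b 0.79 and Ccne1 0.74, with adjusted p between 0.0711 (Mcm10) and 0.238 (Ccne1) in edgeR. With a threshold of 1 gene less for the class, 4 of these 5 (all but Ccne1) were called, where 7.6% of all genes were called. Whether the change within S-list-high cells differs from that over all cells was not tested.

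A comparison of day 14 with day 8 within S-list-high cells was added after the data were seen. It called 4 of the 39 lower (7.36% of all genes called lower) and 1 higher (5.60% called higher), with 18 cells on day 14. Mcm2 went from 383 and 381 CPM to 188 CPM, a fall by 1.02 ± 0.27 (adjusted p = 0.0146 in edgeR). Slbp fell by 1.03 ± 0.28 and Mcm10 fell by 1.02 ± 0.30. Pold1 rose by 0.82 ± 0.25, from 92.4 and 85.2 CPM to 157 CPM (adjusted p = 0.0307 in edgeR), but was not called with a threshold of 1 gene more or 1 gene less for the class. Orc1 had 2 reads in the 18 cells. Its share of reads was 0.061 of the day 8 value (exact 95% interval 0.00737 to 0.221). That interval takes every read as an independent count. The libraries had no molecular identifiers, and the day 8 reads of Orc1 came from far fewer cells than reads. The interval is therefore too narrow for the error of counting molecules or cells. The cyclin E genes did not pass here, with Ccne1 at 39.6 CPM on day 14 against 94.2 and 42.0 CPM on day 8. With a threshold of 1 gene less both were called lower, where 15.4% of all genes were called.

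S-list-high cells were next set against cells low in both lists, within the 3 sets that held at least 10 of each (days 0, 12 and 14). This fit had its own scaling, so CPM of the same S-list-high cells differ from those above. No member passed in edgeR, where 0.0101% of all genes did, and 15 of 39 had an unadjusted p below 0.05. The median difference was 0.62, against 0.11 over all genes, with 34 genes above 0 and 24 higher in all 3 sets. DESeq2 called 6 higher (Ccne1, Ccne2, Cdc45, Gins1, Lig1 and Mcm10, with 2.33% of all genes called). Ccne2 had the largest difference, 3.20 ± 0.72, with 26.7, 53.6 and 32.2 CPM in S-list-high cells of days 0, 12 and 14 and 7.24, 4.15 and 0.93 CPM in low cells (adjusted p = 0.13 in edgeR). Ccne1 followed with 2.76 ± 0.70, at 34.4, 31.9 and 34.3 CPM against 1.70, 9.14 and 6.52 CPM. Cdc45 differed by 2.22 ± 0.47, Mcm10 by 2.19 ± 0.60 and Pole by 1.95 ± 0.95. For Pole the sets disagreed, with 38.6 against 1.66 CPM on day 12 and day 0 in the same direction, but 43.04 against 86.6 CPM on day 14.

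The lowest differences were those of Orc1 (-0.21 ± 1.16), Slbp (-0.17 ± 0.32), Prim1 (-0.09 ± 0.34), Mcm2 (-0.03 ± 0.30) and Pola1 (-0.01 ± 0.42). Pola1 was higher in S-list-high cells in 2 of the 3 sets. For Mcm2 the sets disagreed as well: it had 309.8 against 221 CPM on day 12, with day 0 in the same direction, but 163 against 326 CPM on day 14. The low cells of day 14 had a median of 3027 genes after thinning and 60.2% of reads on Slc34a2, against 5038 genes and 22.1% in its S-list-high cells. On day 0 these values were 4684 genes and 27.9% in low cells and 5168 genes and 17.7% in S-list-high cells, and their part in the class differences was not tested.

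Set against all other cells in 5 sets, a comparison added after the data were seen, 14 of the 39 were higher in S-list-high cells in edgeR and none lower, where 0.365% of all genes were called higher. They were Mcm3, Mcm4, Mcm5, Mcm6, Cdc45, Gins1, Gins2, Pola2, Lig1, Rpa2, Ccne1, Chaf1a, Chaf1b and Uhrf1. The median was 0.81, 38 of 39 lay above 0 and 24 were higher in all 5 sets. Uhrf1, which reads hemimethylated DNA behind the fork, differed by 1.62 ± 0.20 (adjusted p = 0.0105 in edgeR), and Lig1, the ligase that seals Okazaki fragments, by 1.33 ± 0.16 (adjusted p = 0.0105 in edgeR). Gins3 (-0.09 ± 0.37) and Orc1 (0.32 ± 0.65) were the lowest 2. In all 5 sets the other cells had a lower median of genes after thinning and a higher Slc34a2 share. The part of this was not tested.

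Across single cells of a set, the members differed in how closely they followed the rest. Spearman's rho between a gene and the sum of the other 38, as the mean of 6 sets, had a median of 0.43. The most alike were Mcm6 (0.74), Mcm5 (0.64), Mcm3 (0.62), Mcm2 (0.62) and Uhrf1 (0.61). The least alike were Orc1 (0.14), Gins3 (0.19), Pole (0.25), Mcm10 (0.26) and Gins4 (0.26). Cells of a set share library and depth, and Orc1, Gins3 and Pole are among the 5 genes with a read in the fewest cells, so their low values also carry the most counting noise.

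All 39 genes had a rho above 0 with the number of S-list genes detected, with a median of 0.34. With the number of G2M-list genes the median was 0.03, and the genes split into 14 below 0 and 25 above. Those furthest below were Mcm2 (-0.15), Mcm4 (-0.14), Ccne2 (-0.13), Cdt1 (-0.12), Uhrf1 (-0.11), Ccne1 (-0.11, the mean of values from -0.34 to 0.05) and Cdc6 (-0.10). The highest were Rfc5 (0.30), Rfc4 (0.22) and Rfc1 (0.19), subunits of the clamp loader, then Cdc45 (0.18) and Pold1 (0.17). Values of single sets varied widely, for Rfc5 from 0.05 to 0.53 and for Mcm2 from -0.25 to 0.14.

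**Figure D5:**
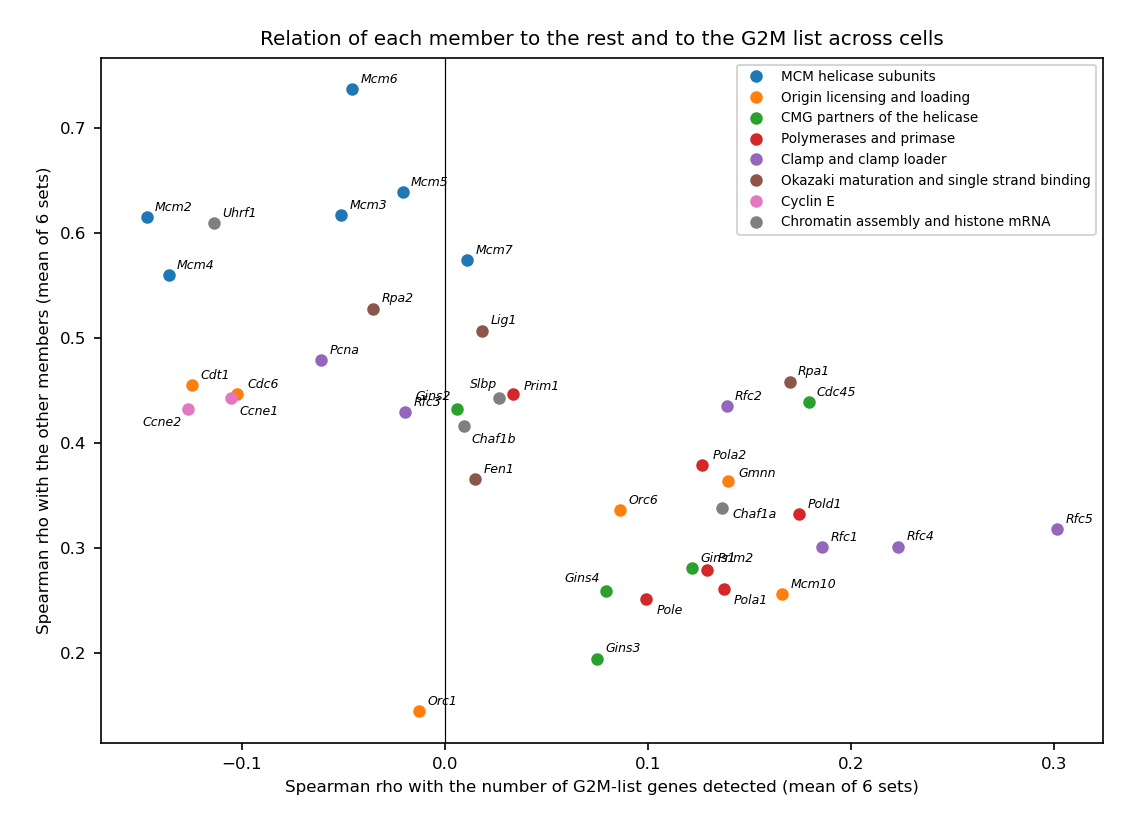
Each of the 39 genes by its Spearman's rho with the number of G2M-list genes detected (horizontal) and with the sum of the other 38 genes (vertical), both as the mean over 6 sets of cells and coloured by role. Mcm6 lies highest at 0.74 and Orc1 lowest at 0.14, and Rfc5 lies furthest right at 0.30.

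Levels were also compared between classes of thinned cells, as means over the sets with at least 5 such cells. Of the 39 genes, 21 were higher by more than 1 on the log2 scale in the 124 cells high in the S list only than in the 52 cells high in the G2M list only. Ccne2 had the largest gap, at 54.3 against 11.4 CPM, then Uhrf1 at 164 against 48.3 CPM, Lig1 at 175 against 52.5 CPM and Pole at 48.5 against 14.3 CPM. Mcm6 was at 705 against 239 CPM. Rfc5 (143.5 against 144.6 CPM), Rfc4 (82.5 against 91.8 CPM) and Gins3 (21.4 against 23.04 CPM) were the 3 genes with no higher level in S-only cells. In cells low in both lists Rfc5 was at 58.9 CPM and Rfc4 at 35.5 CPM. These are descriptions with no test.

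Some members share sequence with other genes. The library method does not mark the strand, and 14 of the 39 share exon bases with a gene on the opposite strand, 8 of them over more than 10% of their exons. The largest were Fen1 with Gm10143 (78.8%), Gins2 with Gse1 (67.3%) and Chaf1a with Ubxn6 (52.5%), and for Ccne2 with Ints8 it was 17.4%. The values of these genes are uncertain to that extent. Pcna, the sliding clamp, has a processed copy, Pcna-ps2, that held almost as many reads: 98.6 CPM for Pcna and 95.4 CPM for the copy on day 0. Neither passed the test on day 8 (0.20 ± 0.27 and 0.17 ± 0.27), and how reads that fit both were assigned is not given in the sources used here.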

How the data were processed

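Single sorted progenitors were made into Smart-seq2 cDNA and Nextera XT libraries, per the labels' protocols, with no molecular identifiers. The deposited tables hold raw read counts, 1 row per gene and 1 column per cell. Per the submitters' processing notes, GSNAP and HTSeq 0.5.3p3 with mm10 were used. The 5 rows that name no gene took a median of 91.1% of a cell's reads and stayed out of totals, as did 92 spike-in rows. A single column matched no labelled cell and was not used. Gene IDs were matched to GENCODE vM21 (GRCm38).

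Cells are not replicates, so counts of kept cells were summed per set. The 6 sums were fitted in edgeR 4.0.16 (TMM factors, a mean per day, quasi-likelihood F test, 1 residual degree of freedom, spread shared across genes). Tested genes passed filterByExpr and were detected in 10% or more of the cells in 1 set or more. P-values were adjusted by Benjamini-Hochberg over all genes tested, with 0.05 as the threshold. The labels do not name the mice behind each set: the p-values reflect how sets vary, and that variation may be technical. S-list-high cells were fitted likewise, and the class comparisons had the set as a block. There the genes of both class lists, which define the classes, stayed in the fit and in the adjustment of p. They were left out only from the shares of all genes called. Named genes were the members called in any comparison, the 3 largest rises and falls on day 8 against day 0, the 2 largest elsewhere, and the 5 highest and lowest in likeness and class difference. Members named outside this rule, for their level, range, class mean or shared sequence, were chosen after their values were seen. The members, lists and tests were chosen with earlier results of these data known. The fits were tested on simulated data. Alternatives were DESeq2 1.42.0, limma voom 3.58.1, other scaling, other filters, thinned cells, other thresholds and sets left out. Doublets were not called, since 1 cell was sorted to a well.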

Additional observations from a re-analysis of the deposited data

How the results depend on the processing

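The count of members called on day 8 against day 0 (5 in edgeR) was 1 with DESeq2 and 1 with limma voom. With cells of at least 200000 reads and 2000 genes it was 3, with 5.29% of all genes called. It was 0 with thinned cells, where edgeR called no gene at all, and 0 with thinned cells in DESeq2. On day 14 against day 8 (6 called) it was 0 with limma voom and 0 with thinned cells in DESeq2. With thinned cells in edgeR it was also 0, where again no gene at all was called. On day 12, the deeper cells gave 1 call against day 0 (Ccne2, with 1.07% of all genes called). Against day 8 they gave 1 (Pold1, with 3.15% of all genes called), and the median turned from -0.03 to 0.13. Using all cells gave 1 against day 8 (Ccne1, with 2.88% of all genes called). Within S-list-high cells, DESeq2 size factors gave 2 calls on day 8 (6.3% of all genes called) and 1 on day 14 (3.96%). A threshold of 1 gene less gave 4 on day 8 (7.6%). S-list-high against low cells gave 6 with DESeq2 (2.33% of all genes called), 4 with a threshold of 1 gene more (3.02%), and 14 against all other cells (0.365% called higher). Phase calls put 55.4%, 67.8%, 59.1% and 66.7% of cells in S on day 0, in the day 8 sets and on day 10. Among deeper cells 96.6% (57 of 59) and 96.1% (49 of 51) of the day 8 sets were S-list-high. The share was 78.1% (25 of 32) on day 0, 88.2% (45 of 51) on day 10 and 96.4% (27 of 28) on day 12. Day 14 kept only 4 deeper cells, 3 of them S-list-high (75%, exact interval 19.4% to 99.4%). These are too few to set against the share of all kept day 14 cells. Thinning without Slc34a2 gave 55.6% on day 0. The cause was not tested for any of these. In all, 101 summary values stayed within their limits and 26 moved beyond them. Among medians and values of single called members, 185 stayed the same, 46 lost their call, 21 moved and 1 reversed. With 1 day 8 set left out there is no residual degree of freedom, so only estimates were given. No paired analysis was possible because the replicate numbers occur within day 8 only. The shallow day 14 set (47 cells) limits Orc1 and cyclin E most. Chosen after seeing the data were thinned cells in DESeq2, leaving out day 14 or Slc34a2, day 14 against day 8 within S-list-high cells, and S-list-high against all other cells.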
